A study of Drosophila melanogaster with 82 samples.

Results

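The translated messages of the adult gut were compared with those of the Malpighian tubule in female flies on rich food. Both are epithelia made of one layer of cells. The comparison rests on the 12 arrays whose titles name gut AL (6 pools) or tubule AL (6 pools), of 82 arrays in the series, which covers 7 tissues on 2 foods. Every gut and tubule pool held 100 female Drosophila melanogaster, 13 days old, that had spent 10 days on AL food (5% yeast extract). Where a DR array is used, the food was DR food (0.5% yeast extract). Pools of the other 5 tissues on AL food had the same age and days on food, with 100 flies, or 200 for neuron. Heart AL and neuron AL had 5 pools each. Whole flies were homogenised, and ribosomes were pulled down through the FLAG tag on RpL13A, a protein of the large ribosomal subunit. All flies carried the transgene UAS-RpL13A-His6FLAG, switched on by a GAL4 driver. Gut flies had the genotype +/+; MYOIA-GAL4/+; UAS-RpL13A-His6FLAG/+ and tubule flies +/+; +/+; C42-GAL4/UAS-RpL13A-His6FLAG. MYOIA-GAL4 is known for activity in enterocytes, the absorptive cells of the gut, and C42-GAL4 for activity in principal cells, the main ion-pumping cells of the tubule. Each tissue had 1 driver line, so tissue, driver line and transgene background cannot be told apart.

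Enterocytes secrete digestive enzymes and take up sugars, amino acids and lipids through a brush border of microvilli. The Malpighian tubule is the fly's kidney. Its principal cells energise the apical membrane with a proton pump and drive cations into the lumen. The tubule also moves chloride and water into the lumen and clears toxins and metabolic waste. In a pulldown from tagged ribosomes, the signal of a transcript depends on how much of it sits on ribosomes in the tagged cells, on how many tagged cells a fly has, and on untagged RNA carried over from the homogenate. Fewer cells of a type and less RNA per cell cannot be told apart in such bulk pools. Untagged flies and input RNA are not analysed here.

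Levels below are log2 intensities on one-colour arrays, as the mean of the probes of a transcript, and a difference is gut minus tubule unless stated otherwise. The arrays measured 16637 transcripts, and 16616 of them had 8 probes. The 95th percentile of 4100 control probes with random sequence marked the background of each array. It was 7.94 ± 0.25 in gut and 8.22 ± 0.12 in tubule (SD, n = 6 each; adjusted p = 0.0390, exact permutation test, two-sided, over 4 array measures). Transcripts above it made up 69.0 ± 2.6% of all in gut and 65.8 ± 1.3% in tubule (SD, n = 6; adjusted p = 0.0390, same test), so the background itself differed between the tissues. The smallest p that 6 pools against 6 allow is 0.00216.

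Tubule AL pool 4 stood apart from the other tubule pools. Across the 16637 transcripts it correlated with them at r = 0.964 to 0.972, whereas gut pools correlated with each other at 0.990 to 0.997. In pool 4, 13.5% of transcripts lay at least 2-fold from the mean of the other 5 tubule pools, against 0.06% to 0.57% for each other tubule pool. Its profile correlated with neuron AL at 0.921, where the other 5 tubule pools together correlated at 0.855. Germ line AL (0.871 against 0.816) and muscle AL (0.884 against 0.850) moved the same way. Gut AL (0.903 against 0.899) and heart AL (0.928 against 0.927) hardly moved, and fat body AL was lower (0.896 against 0.903). With tubule DR pool 4 correlated at 0.933, where the others reached 0.980. The mean level of the 34 transcripts that lead in neuron was 8.44 in pool 4, near the tubule background, and from 8.5 to 8.82 in the other tubule pools. The cause of its deviation was not tested. Without pool 4 the background and the share above it had an adjusted p of 0.0996 each (exact permutation test). Results are therefore given with all 12 pools and, where it matters, without pool 4. The labels do not say that pools came from separate crosses or days, so p-values measure the spread between these pools.

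The translated messages of gut and tubule differed widely, mostly by less than 2-fold. Adjusted p was below 0.05 for 49.4% of the transcripts. By limma with Benjamini-Hochberg adjustment over all transcripts, 4253 were higher in gut and 3967 were higher in tubule at adjusted p below 0.05, which is 25.6% and 23.8% of those tested. The median size of the difference over all transcripts was 0.30 on the log2 scale, and 82.9% differed by less than 2-fold. A difference of at least 2-fold was called for 1352 transcripts higher in gut (8.13%) and 1485 higher in tubule (8.93%), together 17.1%. Without tubule pool 4 the first pair of counts was 6052 (36.4%) and 4533 (27.2%), and the 2-fold counts were 1322 (7.95%) and 1611 (9.68%). Of the 2-fold calls made with all pools, 1259 and 1483 were kept without that pool.

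**Figure D1:**
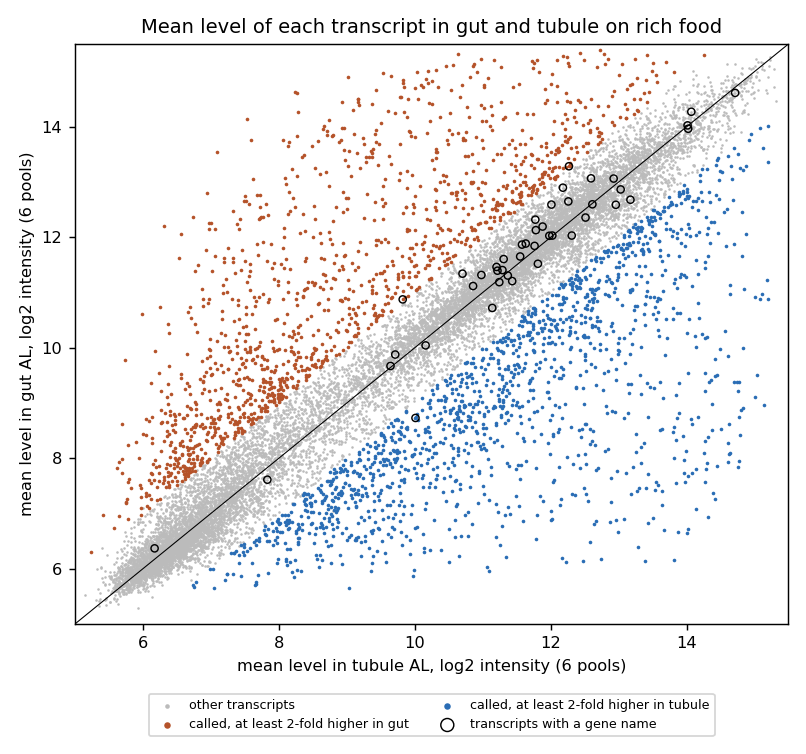
Mean level of each of 16637 transcripts on rich food, with tubule AL on the x axis and gut AL on the y axis (log2 intensity, 6 pools each); the line marks equal levels, orange and blue points are the 1352 and 1485 transcripts called at least 2-fold higher in gut or tubule, and rings are the 44 transcripts with gene names. Large differences lie on both sides of the line, and most named transcripts lie close to it.

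Every gut pool lay above every tubule pool for 2986 transcripts (17.9%), and the reverse held for 2690 (16.2%). Of the 2-fold calls, 1340 of 1352 and 1417 of 1485 had separated pools. All 8 probes were on the same side in 1261 of 1343 transcripts higher in gut and in 1409 of 1485 higher in tubule, which the selection on their mean favours. Over all transcripts with 8 probes this held for 7279 of 16616 (43.8%).

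The tubule side held more of the very large differences. Where the dim tissue lay below the control probes on every array, its background on those arrays was put in its place, so that the fold is a lower bound. Counted so, 1047 of the 2-fold calls in gut and 1307 in tubule reached 2-fold, and at least 4-fold was reached by 469 transcripts in gut and 569 in tubule. At least 16-fold, the counts were 130 and 155, or 121 and 170 without pool 4. At least 64-fold, they were 2 and 29, or 2 and 36 without pool 4. The background was higher on tubule arrays after normalization, which lowers the bounds on the gut side. When transcripts were ordered by mean level and split into 10 groups of equal size, the share with a 2-fold call peaked at 35.2% in the fourth group from the bottom, with levels from 7.86 to 9.09, and was 12.2% in the brightest group. The difference in the number of very large calls between the tissues was not tested.

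The transcripts with the largest differences had no gene name in the table used, and they are given by their identifiers. FBtr0100081 lay between 14.01 and 14.23 in gut with a median of 14.14, and between 6.98 and 8.03 in tubule with a median of 7.53. It was below the control probes in tubule, so its level in gut was at least 60.2-fold higher (adjusted p = 8.16e-14, limma). FBtr0084484 ranged from 13.33 to 13.70 in gut and from 6.73 to 7.33 in tubule, at least 40.03-fold higher in gut. On the tubule side, FBtr0088241 ranged from 13.32 to 13.99 in tubule and from 5.86 to 6.50 in gut, at least 58.7-fold higher in tubule. FBtr0076589 ranged from 13.65 to 14.70 in tubule and from 6.59 to 7.29 in gut, at least 82.7-fold higher in tubule. The choice of these 4 required separated pools. The bounds set the bright tissue against the control-probe background of the dim one.

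In the other 5 tissues on AL food the picture varied. FBtr0100081 was as high in fat body as in gut, with means of 14.05 and 14.13, and the other 4 tissues had means from 7.25 to 8.09. FBtr0084484 had means from 8.08 to 12.09 in the other 5, with fat body the highest. FBtr0088241 had means from 6.67 to 7.12 in the other 5 and was above the control probes on 10 of their 28 arrays. FBtr0076589 had means from 6.99 to 8.44 there. A difference from the mean of the other tissues of at least 2-fold was called for 1586 transcripts higher in gut (9.53%) and 1389 lower (8.35%), and for 1787 higher in tubule (10.7%) and 1707 lower (10.3%). Without pool 4 the tubule counts were 1987 (11.9%) and 2004 (12%).

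Gene names could be attached to few transcripts. Of 16637, 16 were paired with 1 gene and 28 with several genes that share a transcript, read as separate reading frames. The remaining 16593 carry an identifier alone. The 15 gene lists written for this comparison cover digestion, immunity, the proton pump, channels, hormone receptors and markers of other cells, and 13 of them had no member among the named transcripts. None of the 37 cell type markers had a named transcript either, so the tissue labels were not checked against marker genes here. What follows on named genes is a description of those that can be named and does not stand for either tissue's program.

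Of the 16 transcripts paired with 1 gene, 7 were higher in gut and 1 was higher in tubule, and 8 were not called, where 25.6% and 23.8% of all transcripts were called. Their median difference was 0.27, beside 0.03 for all transcripts. Without pool 4, 11 were higher in gut and 1 in tubule, beside 36.4% and 27.2% of all. Pools were separated for 5 of the 7, all higher in gut, namely LanA, Fatp1, CG16974, alpha-Spec and mio. Of the 16, 15 lay above the control probes in every pool of both tissues, and CG31178 lay below them in every pool.

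The largest of these differences was in LanA, which encodes the alpha chain of laminin, a main component of the basement membrane on which both epithelia rest. LanA ranged from 10.50 to 11.42 in gut with a median of 10.80, and from 9.69 to 10.10 in tubule with a median of 9.79. The lowest gut pool lay above the highest tubule pool. The difference was 1.05 ± 0.14 (SE, n = 6 each; adjusted p = 2.03e-05, limma), a 2.08-fold higher level in gut, and all 8 probes were higher in gut. Tubule was the lowest of the 7 tissues on AL food for LanA, 0.87 below the mean of the other 5 (adjusted p = 2.18e-09), while gut was 0.18 above it (adjusted p = 0.115). For LanA the tubule thus stood farther from the other tissues than the gut did. alpha-Spec, which encodes the alpha-spectrin of the membrane skeleton beneath the plasma membrane, ranged from 12.19 to 12.51 in gut and from 11.28 to 11.97 in tubule. Its difference was 0.54 ± 0.11 (SE, n = 6; adjusted p = 0.000923, limma) and 0.44 without pool 4, which was the lowest tubule pool. For alpha-Spec, gut at 12.32 lay beside heart at 12.29 and germ line at 12.27, and these 3 tissues did not differ beyond the SD of their pools.

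Fatp1 encodes a fatty acid transport protein, which helps long-chain fatty acids enter cells and join coenzyme A. Fatp1 ranged from 13.21 to 13.40 in gut with a median of 13.25, and from 11.27 to 12.70 in tubule with a median of 12.42. The lowest tubule value was that of pool 4, and the other 5 tubule pools also lay below all gut pools. The difference was 1.02 ± 0.19 (SE, n = 6; adjusted p = 0.000425, limma) and 0.82 without pool 4. Gut stood 1.11 above the mean of the other 5 tissues, and only fat body, the fly's main lipid store, was higher. NaPi-III, named as a phosphate transporter, ranged from 12.17 to 12.86 in gut and from 11.63 to 13.10 in tubule. Its 0.58 ± 0.22 (SE, n = 6; adjusted p = 0.0444, limma) was called, but pool 4 at 13.10 was above every gut pool. Without it the NaPi-III difference was 0.80 (adjusted p = 0.000101).

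mio and Wdr24 both encode subunits of GATOR2, the complex that relays amino acid supply to the growth kinase TOR. mio ranged from 11.52 to 11.66 in gut and from 11.08 to 11.37 in tubule, so the pools did not overlap. The mio difference was 0.30 ± 0.07 (SE, n = 6; adjusted p = 0.00270, limma). Wdr24 ranged from 11.002 to 11.35 in gut and from 11.26 to 11.89 in tubule, with a difference of -0.23 ± 0.11 (SE, n = 6) that did not pass the test (adjusted p = 0.111, limma). The 2 subunits had differences of opposite sign, and the contrast between them was not tested.

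Of 4 named genes of chromatin, 1 was called with all pools, where 49.4% of all transcripts were called. Without pool 4, 3 were called, where 36.4% of all were higher in gut and 27.2% in tubule. So few genes give no result for chromatin genes as a group. HDAC3, a histone deacetylase, ranged from 11.25 to 11.41 in gut and from 10.80 to 11.45 in tubule, and was called at 0.34 ± 0.10 (SE, n = 6; adjusted p = 0.0123, limma). The highest tubule pool was pool 4, and the other 5 lay below all gut pools for HDAC3, which differed by 0.43 without it. SuUR, which holds back replication in polytene chromosomes, had a difference of 0.25 ± 0.17 (SE, n = 6; adjusted p = 0.252, limma), and kis, a chromodomain helicase, had 0.14 ± 0.10 (SE; adjusted p = 0.294). Both were called without pool 4, at 0.43 and 0.22. His4r, a histone H4 made from a polyadenylated message, had -0.10 ± 0.06 (SE, n = 6; adjusted p = 0.189, limma) and also -0.10 without pool 4.

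Both named genes of ubiquitin conjugation missed the call with all pools, where 49.4% of all transcripts were called. Uba1 encodes the activating enzyme at the head of the pathway, and its difference was -0.06 ± 0.07 (SE, n = 6; adjusted p = 0.491, limma). rdx encodes an adaptor of a cullin ubiquitin ligase, and its difference was 0.20 ± 0.17 (adjusted p = 0.346), or 0.35 without pool 4 (adjusted p = 0.0136). Of the rest, CG16974 was separated in all pools, from 12.83 to 12.98 in gut against 12.10 to 12.27 in tubule, and differed by 0.72 ± 0.06 (SE, n = 6; adjusted p = 2.63e-07, limma). fend was the 1 gene higher in tubule, at -0.42 ± 0.16 (SE, n = 6; adjusted p = 0.0489, limma), with pools that overlapped, and at -0.27 without pool 4. sle had 0.35 ± 0.25 (SE, n = 6; adjusted p = 0.286, limma), and pool 4 at 13.10 exceeded every gut pool for it. Without pool 4 sle was called at 0.61.

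**Figure D2:**
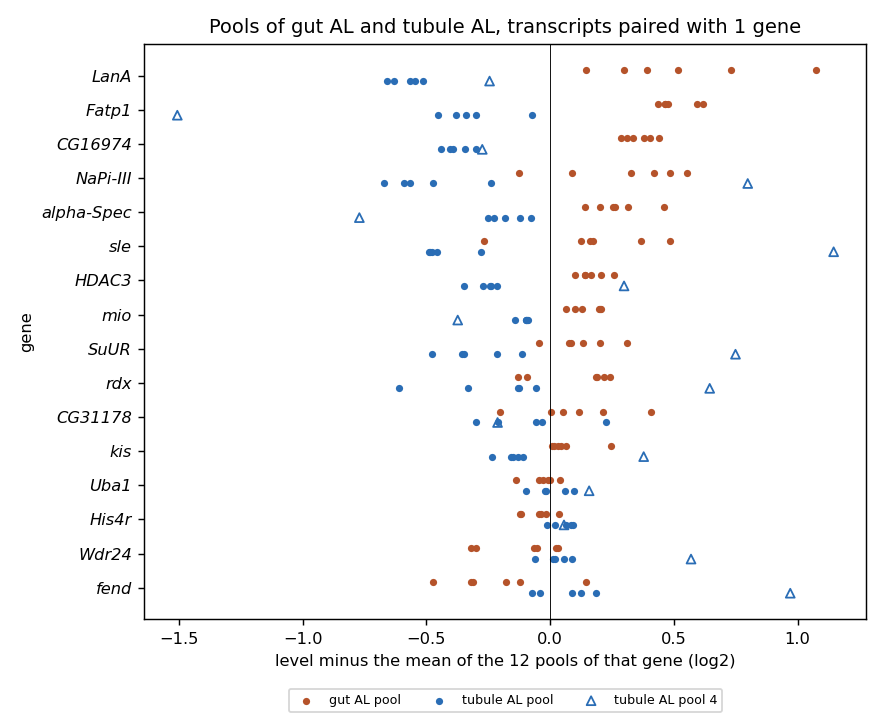
Level of each pool for the 16 transcripts paired with 1 gene, as the log2 difference from the mean of the 12 pools of that gene; orange points are gut AL pools, blue points tubule AL pools and open triangles tubule AL pool 4. LanA, Fatp1, CG16974, alpha-Spec and mio separate the tissues. For NaPi-III, sle, SuUR, rdx, HDAC3, kis, Wdr24, fend and Uba1, pool 4 lies to the right of every other pool.

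Among the 28 transcripts read as several genes, 4 were higher in gut, 5 were higher in tubule and 19 were not called, with a median difference of 0.02, where 25.6% and 23.8% of all transcripts were called. Without pool 4, 12 were higher in gut and 6 in tubule, where 36.4% and 27.2% of all were called. The array signal is that of the shared transcript and cannot be assigned to one of its reading frames.

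Higher in gut was the transcript of Tgs1 and moi, which encode the enzyme that hypermethylates the caps of small nuclear RNAs and a protein that caps telomeres. It ranged from 11.19 to 11.54 in gut and from 10.43 to 11.44 in tubule, where the top value was pool 4, and differed by 0.64 ± 0.15 (SE, n = 6; adjusted p = 0.00240, limma). CG6191/CG45088 differed by 0.47 ± 0.08 (SE, n = 6; adjusted p = 0.000218, limma), and gut ranked highest of the 7 tissues. Its pools were separated, unlike those of the other 3. Pbp49/CG42516, whose first gene encodes a subunit of the complex that recruits polymerases to small nuclear RNA genes, differed by 0.39 (adjusted p = 0.0425, limma). CG7950/Rpp14a, whose second gene encodes a subunit of ribonuclease P, differed by 0.26 (adjusted p = 0.0423, limma).

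Higher in tubule, with separated pools in all 5, was a set led by CG17325/CG42305. It ranged from 8.43 to 8.98 in gut with a median of 8.74, and from 9.54 to 10.32 in tubule with a median of 10.04. The difference was -1.28 ± 0.13 (SE, n = 6; adjusted p = 9.34e-07, limma), a 2.43-fold higher level in tubule, which ranked highest of the 7 tissues. Ppcdc/CG42496, whose first gene encodes a decarboxylase of coenzyme A synthesis, ranged from 12.59 to 12.78 in gut and from 13.04 to 13.32 in tubule. It differed by -0.49 ± 0.07 (SE, n = 6; adjusted p = 4.12e-05, limma), and neuron at 13.13 was close to tubule at 13.17. CG8026/CG45085 differed by -0.37 ± 0.07 (SE, n = 6), CG44000/CG44001/CG33995 by -0.29 ± 0.08 and Mettl5/CG42374 by -0.28 ± 0.08. Mettl5 encodes a methyltransferase of ribosomal RNA. Differences of the single probes of Mettl5/CG42374 ranged from -1.51 to 0.01.

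Among the 19 not called were transcripts of GPI anchor synthesis (PIG-P/Tcs6 and PIG-M/CG42379/CG42380/CG42381), of molybdopterin synthase (Mocs2B/Mocs2A), of mevalonate kinase (Mvk/CG33672) and of a subunit of respiratory complex I (ND-MNLL/CG45089). The largest size among the 19 was 0.31, for PIG-P/Tcs6 (adjusted p = 0.153, limma), with a tubule range from 11.56 to 12.76 whose top value was pool 4. Without pool 4 PIG-P/Tcs6 was called at 0.49 (adjusted p = 0.000116, limma) and Mvk/CG33672 at 0.32 (adjusted p = 0.00216). CG32573/CG42512 lay near the control probes in both tissues, at 7.61 ± 0.27 in gut and 7.83 ± 0.46 in tubule (SD, n = 6), against 11.90 in fat body.

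**Figure D3:**
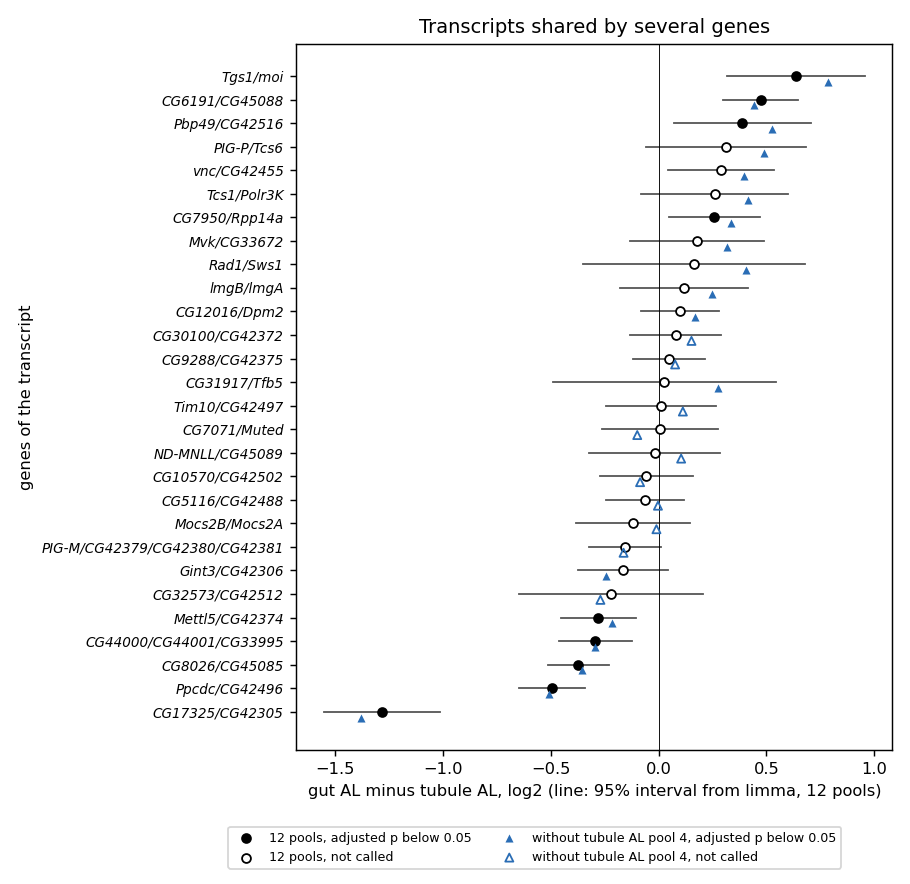
Difference between gut AL and tubule AL (log2) for the 28 transcripts read as several genes; circles show the fit to 12 pools with its 95% interval, triangles the fit without tubule AL pool 4, and filled symbols an adjusted p below 0.05. CG17325/CG42305 lies farthest from 0, and leaving out pool 4 moves most of the upper transcripts toward gut.

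Most transcripts were detected in both epithelia or in neither. In all 12 pools, 9924 transcripts (59.7%) lay above the control probes, and 3951 (23.7%) lay above them in none. On all gut arrays and on no tubule array, 395 transcripts lay above them, and 302 of these had a 2-fold call. On all tubule arrays and on no gut array there were 175, of which 174 had a 2-fold call. Such calls were made for 8.13% and 8.93% of all transcripts. The rule and the call use the same levels, so the rule favours a call. The counts of 395 and 175 rest on the background, which was higher on tubule arrays after normalization. With the highest background of the 12 arrays, 8.36, used for all of them, the counts were 385 and 337. Without pool 4 they were 424 and 239. On DR arrays, 183 of the 395 and 86 of the 175 met the same rule, and 0 met the opposite one. How many of all transcripts meet the rule on DR is not given here.

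Set among the 7 tissues on AL food, the tissue with the higher level in a 2-fold call was often the highest of the 7. Gut was the highest of the 7 for 818 of the 1352 transcripts higher in gut, and tubule was the lowest for 432 of them. Tubule was the highest of the 7 for 866 of the 1485 higher in tubule, and gut was the lowest for 384. Over all 16637 transcripts, gut was the highest of the 7 for 1820 and the lowest for 2033. Tubule was the highest for 1873 of all transcripts and the lowest for 2732. Calls and ranks use the same gut and tubule levels. Calling a transcript on gut against tubule therefore favours high and low ranks among the called, and the ranks are a description only.

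Fat body was the tissue most like gut and heart the tissue most like tubule, and these were the nearest 2 tissues for both. Over the 16637 transcripts, the mean profile of gut correlated with fat body at r = 0.946, heart at 0.922 and tubule at 0.904. The profile of tubule correlated with heart at 0.932, fat body at 0.906 and gut at 0.904. All profiles share the probes and the normalisation, and correlations are given as descriptions. Among the other 5 tissues, fat body was the highest for 50.3% of the transcripts higher in gut, beside 22.9% of all transcripts. Heart was the highest for 38.5% of those higher in tubule, beside 12.1% of all.

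The same was seen for transcripts chosen without gut and tubule arrays, as those at least 4-fold higher in one of the other 5 tissues on AL food than in each of the other 4. The rule did not use the levels in gut and tubule, so a listed transcript can be as high there. FBtr0100081 meets the fat body rule, with means of 14.05 in fat body and 14.13 in gut. Translation in gut or tubule cells and RNA carried over from other cells cannot be told apart here. Of 637 transcripts leading in fat body, 302 were 2-fold higher in gut and 93 in tubule, beside 8.13% and 8.93% of all. Their mean level was 12.51 in fat body, from 11.11 to 11.35 over the gut pools and from 9.35 to 10.06 over the tubule pools. Of 128 leading in heart, 0 were 2-fold higher in gut and 103 in tubule. Their mean level was 12.01 in heart, from 8.43 to 8.55 over the gut pools and from 9.698 to 10.77 over the tubule pools. Tubule pool 4 had the lowest value of the 6 tubule pools for both, 9.35 and 9.698. Without pool 4 the tubule means were 10.03 ± 0.03 and 10.70 ± 0.06 (SD, n = 5), and the median differences were 0.61 for fat body and -2.13 for heart, against 0.76 and -1.96 with it.

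The neuron list also leaned to gut, and the germ line list leaned to neither tissue in its 2-fold counts. Of 34 transcripts leading in neuron, 21 were 2-fold higher in gut and 5 in tubule, with mean levels of 10.07 ± 0.08 and 8.65 ± 0.15 (SD, n = 6). Of 197 leading in muscle, 5 were 2-fold higher in gut (2.54%) and 42 in tubule (21.3%), beside 8.13% and 8.93% of all. Of 100 leading in germ line, 5 were 2-fold higher in gut and 6 in tubule. At adjusted p below 0.05 alone (limma), 23 of these 100 were higher in gut and 13 in tubule, beside 25.6% and 23.8% of all. They were near the control probes in both tissues, at 7.39 ± 0.12 and 7.36 ± 0.06 (SD, n = 6). The part of other cells in the gut and tubule differences was not tested.

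**Figure D4:**
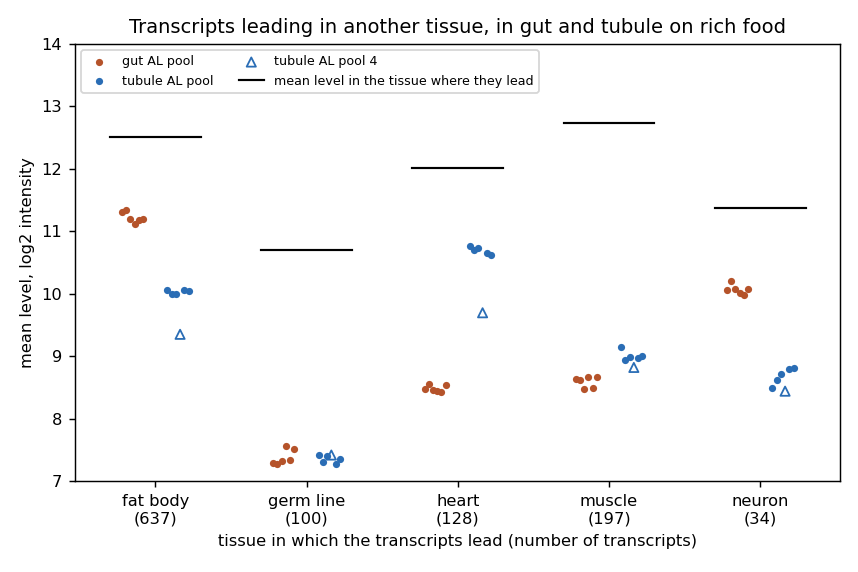
Mean log2 level, in each gut AL pool (orange) and tubule AL pool (blue, pool 4 as an open triangle), of the transcripts that lead in another tissue; the number of transcripts stands under each tissue and the black line is their mean level in that tissue. Gut pools lie above tubule pools for the fat body and neuron lists and below them for the heart and muscle lists.

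The gut and tubule arrays on DR food are separate pools and test the same tissue difference again. On them 1503 transcripts were at least 2-fold higher in gut (9.03%) and 1716 in tubule (10.3%). The difference on DR correlated with that on AL at r = 0.922 over the 16637 transcripts, which share driver lines and probes. Of the 1352 transcripts at least 2-fold higher in gut on AL, 986 (72.9%) were also called 2-fold on DR and 1330 had the same sign. Of the 1485 higher in tubule, 1272 (85.7%) were called again and 1463 had the same sign. Only 7 had 2-fold calls in opposite directions.

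The transcripts with the largest differences on DR were partly others than on AL. FBtr0084941 ranged from 13.36 to 13.75 in gut on DR and lay below the control probes in every tubule pool, so it was at least 40.9-fold higher in gut. On AL its gut level ranged from 10.22 to 11.27, and it was at least 5.75-fold higher in gut. FBtr0074769 was at least 26.3-fold higher in gut on DR. On the tubule side FBtr0088241 was at least 61.6-fold higher on DR, and FBtr0076588 at least 71.9-fold on DR and 66.9-fold on AL.

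**Figure D5:**
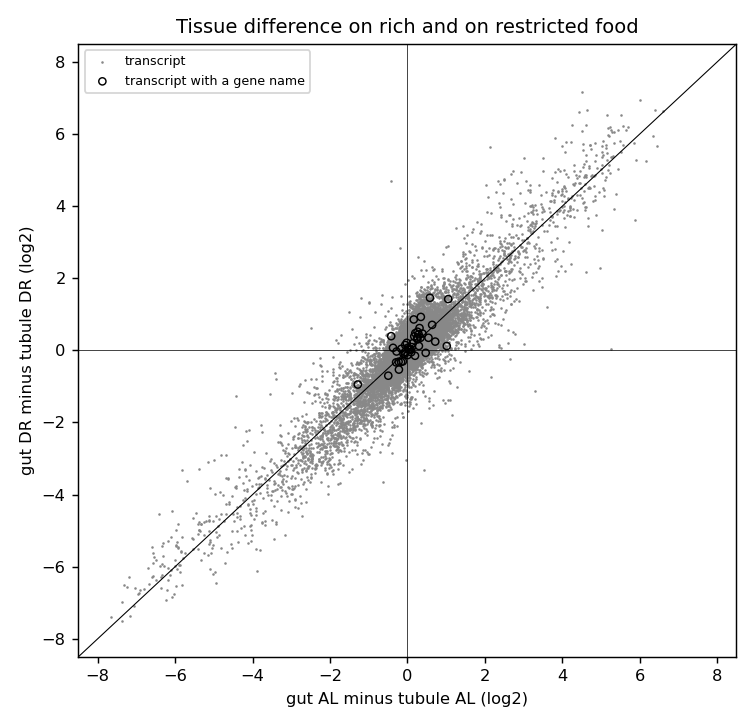
Gut minus tubule difference (log2) of each of 16637 transcripts on AL food (x axis) and on DR food (y axis); the diagonal marks equal differences and rings mark the 44 transcripts with gene names. Points follow the diagonal (r = 0.922), with scattered transcripts far from it.

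Named genes followed this only in part. LanA was again higher in gut on DR, from 11.09 to 12.15 in gut and from 10.08 to 10.48 in tubule, a difference of 1.42 ± 0.15 (SE, n = 6; adjusted p = 3.51e-06, limma). alpha-Spec differed by 0.35 on DR (adjusted p = 0.000885), NaPi-III by 1.46 (adjusted p = 7.71e-05) and HDAC3 by 0.35 (adjusted p = 0.00136), all higher in gut. On DR, 9 of the 16 single genes were higher in gut and 1, Wdr24, was higher in tubule, beside 34.1% and 27.9% of all transcripts. Of the 28 shared transcripts, 9 were higher in gut and 5 in tubule on DR. Ppcdc/CG42496 and CG17325/CG42305 stayed on the tubule side, at -0.70 and -0.95.

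The tissue difference depended on food for 2734 transcripts (16.4%) in a fit of all 24 arrays, 1613 with a value on AL more toward gut than on DR (9.7%) and 1121 more toward tubule (6.74%). Without pool 4 these counts were 1952 (11.7%) and 1691 (10.2%). By at least 2-fold the counts were 373 (2.24%) and 243 (1.46%). Among the 44 named, 5 passed. Fatp1 was higher in gut on AL, but on DR it ranged from 13.14 to 13.48 in gut and from 13.13 to 13.26 in tubule, so that the tissues overlapped. Its difference was larger on AL by 0.90 ± 0.21 (SE; adjusted p = 0.00414, limma), or by 0.70 without pool 4. Gut means of Fatp1 on the 2 foods were 13.29 and 13.30, and tubule means were 12.27 on AL and 13.18 on DR. The Fatp1 means differed between foods more in tubule than in gut.

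CG16974 behaved the other way round. Its gut mean was 12.90 on AL and 12.24 on DR, its tubule means were 12.18 and 11.99, and its difference was larger on AL by 0.47 ± 0.07 (SE; adjusted p = 7.99e-05, limma). CG6191/CG45088 was higher in gut on AL and had a difference of -0.07 on DR, a change of 0.54 ± 0.10 (SE; adjusted p = 0.000293, limma). CG8026/CG45085 was higher in tubule on AL and had 0.07 on DR, a change of -0.44 ± 0.08 (SE; adjusted p = 0.000696, limma). Its gut mean was 12.59 on AL and 13.02 on DR, with tubule means of 12.96 and 12.95. fend had -0.42 on AL and 0.39 on DR, of which the DR value did not pass (adjusted p = 0.0786, limma), and a change of -0.81 ± 0.26 (SE; adjusted p = 0.0305, limma).

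The unnamed transcripts given next were chosen for the size of their change among those above the control probes on at least 12 of the 24 arrays, so they are a description. FBtr0079442 was at 10.32 in gut and 10.74 in tubule on AL, and on DR at 11.82 in gut and below the control probes in every tubule pool, at least 11.99-fold higher in gut. FBtr0071854 was at 13.75 in gut and 10.47 in tubule on AL, and at 9.39 and 10.51 on DR, a change of 4.41. FBtr0082625 was at 9.28 in gut on AL and 12.57 on DR, and below the control probes in every tubule pool on both foods. FBtr0076256 was at 9.81 in tubule on AL and 12.03 on DR, and in gut at 9.17 and 8.37. Its gut pools on AL ranged from 7.82 to 12.24 with a median of 8.64.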

How the data were processed

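The authors deposited linear Cy3 intensities, 1 per probe and array, for 82 one-colour NimbleGen arrays. Per the labels' protocols, RNA pulled down with ribosomes was amplified and labelled, in an order randomised across groups. No source used here names the scanner, the background correction or the annotation. The deposited intensities had nearly the same distribution within a tissue (largest gap 0.0379 on the log2 scale) and differed by up to 0.2256 between gut and tubule. Here log2 intensities of all 82 arrays were quantile normalized together, control probes included. The background was taken from the normalized control probes, and the probes of each transcript were then averaged without them. Gut AL and tubule AL were compared with limma 3.58.1 in R 4.3.3, with Benjamini-Hochberg adjustment over 16637 transcripts and a threshold of 0.05, alone or with a difference of at least 1 on the log2 scale. DR arrays, the change with food and the mean of the other 5 tissues on AL had fits of their own. The number of arrays limits precision.

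Names came from the RefSeq gene table of Release 6 plus ISO1 MT. All transcripts it pairs with genes are counted and plotted, though not each is described. Of the transcripts with no name, at most 2 per comparison and direction are given. They were taken by size among those called with separated pools and with every pool of the bright tissue above the control probes. For the change with food, 12 of 24 arrays above them sufficed. The members, the gene lists and the leading transcripts were chosen with earlier results of these data known, and transcripts read as several genes were added after the data were seen. Of the lists, NaPi-III was the 1 named member of 38 in channels and transporters, and LanA and alpha-Spec were 2 of 23 in junctions and polarity.

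Simulated arrays for gut AL against tubule AL held 16637 transcripts. On them 51 of 100 changes of 0.5 and 87 of 100 of 1 were called, with 5 calls among the unchanged. The simulation changed far fewer transcripts than the 49.4% called in the data. Its noise was independent and of the same spread in both groups, with no pool like pool 4. These rates therefore do not carry over to the comparison itself. Deviations of same-numbered pools correlated at -0.116 to 0.344, and pools 2 and 4 matched their own number best. These values cannot decide whether pool numbers pair the samples, and pool number was not used in the main fit. Alternatives covered scaling, background, averaging, filters, arrays in the fit, weights and leaving out each pool.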

Additional observations from a re-analysis of the deposited data

Results flagged for a closer look

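In 34 of 128 series of 6 pools, 1 pool lay far from the other 5, measured as its gap to the nearest pool over the range of the group, beyond Dixon's 95% critical value. Chance gives about 5% of such flags, and 32 of the 34 were tubule AL pool 4, so these flags are not independent. The gut pools singled out were pool 5 for kis (0.758) and pool 4 for CG30100/CG42372 (0.677).

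Tubule AL pool 4 was above the other tubule pools for LanA (0.647), NaPi-III (0.706), sle (0.871), HDAC3 (0.797), SuUR (0.703), kis (0.792), Wdr24 (0.764) and fend (0.753). It was below them for Fatp1 (0.734), alpha-Spec (0.745) and mio (0.826). Among transcripts read as several genes it was above for Tgs1/moi (0.771), Pbp49/CG42516 (0.743), PIG-P/Tcs6 (0.781), vnc/CG42455 (0.783), Tcs1/Polr3K (0.786), Mvk/CG33672 (0.779), Rad1/Sws1 (0.772), lmgB/lmgA (0.750), CG12016/Dpm2 (0.766) and CG30100/CG42372 (0.767). It was also above for CG31917/Tfb5 (0.761), Tim10/CG42497 (0.762), ND-MNLL/CG45089 (0.669), Mocs2B/Mocs2A (0.949) and Mettl5/CG42374 (0.819), and below for CG7071/Muted (0.878) and Gint3/CG42306 (0.672). It was below for the unnamed FBtr0076588 (0.666) and FBtr0088241 (0.848), and for the mean level of the transcripts leading in fat body (0.910) and in heart (0.863).

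A test of the change itself found that the gut minus tubule difference changed with food for 5 of the 44 named transcripts, beside 16.4% of all transcripts. The change on AL relative to DR was 0.90 for Fatp1, 0.47 for CG16974, -0.81 for fend, 0.54 for CG6191/CG45088 and -0.44 for CG8026/CG45085. Another 7 were unnamed transcripts chosen for a large difference or change, so that their passing is no count. Their fitted change was 0.79 for FBtr0084484, -0.96 for FBtr0074769, -2.67 for FBtr0084941, 4.41 for FBtr0071854, -3.52 for FBtr0082625, -5.11 for FBtr0079442 and 3.02 for FBtr0076256. Of these 7, FBtr0084484, FBtr0074769, FBtr0084941, FBtr0082625 and FBtr0079442 lay below the control probes in every tubule pool on DR, so their fitted values are not exact. Without pool 4 the adjusted p (limma) was below 0.05 for all 12, with the highest, 0.0357, for fend.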

How the results depend on the processing

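Leaving out 1 pool at a time gave 3968 to 6052 transcripts higher in gut and 3723 to 4533 higher in tubule, and 1312 to 1388 and 1452 to 1611 at 2-fold, with the highest gut count and both tubule maxima reached without tubule AL pool 4. The other 16 alternatives gave 3444 to 6412 and 3263 to 4765, and 1101 to 1940 and 1317 to 1886 at 2-fold. The 6412 came from array weights, which gave pool 4 a weight of 0.0628. The share of calls higher in gut was 51.7% and ran from 46.6% under cyclic loess to 57.4% with array weights. Blocking by pool number, although it is not known whether the numbers pair the samples, gave 4274 and 3935, and 1353 and 1485 at 2-fold. The change with food was called for 923 transcripts above 0 and 583 below with all 82 arrays in the fit, and for 1691 below 0 without tubule AL pool 4. The causes of these moves were not tested. Without that pool the background differed by -0.27 and the share of transcripts above it by 2.97 percentage points, each with an adjusted p of 0.0996 (exact permutation test over 5 pools against 6). Mocs2B/Mocs2A reversed with the first 4 probes, at 0.32.

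Of the named calls, LanA, Fatp1, CG16974, alpha-Spec, Tgs1/moi, CG6191/CG45088, CG8026/CG45085, Ppcdc/CG42496 and CG17325/CG42305 kept direction and call in 28 of 28 alternatives. NaPi-III lost its call in 14, fend in 13, Pbp49/CG42516 in 13, CG7950/Rpp14a in 16, mio and Mettl5/CG42374 in 3 each, HDAC3 in 2 and CG44000/CG44001/CG33995 in 1, while vnc/CG42455, with an adjusted p of 0.0503 by limma, gained one in 11. Dim transcripts limit folds to bounds.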
